A study of Mus musculus with 14 samples.

Results

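The mitosis genes described here are 38 genes chosen by name from the 21138 genes of the count table. They encode proteins that take a cell from the entry into mitosis to the separation of its daughter cells, and they were grouped by role: 2 proteins of mitotic chromosomes, 8 entry kinases, cyclins and their activators, 3 subunits of the chromosomal passenger complex, 5 proteins of the spindle checkpoint and mitotic exit, 7 centromere and kinetochore proteins, 7 spindle motors and microtubule proteins, and 6 proteins of the midzone and cytokinesis. All 38 had counts and passed the expression filter of every comparison.

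A cell enters mitosis when cyclin B-bound Cdk1 becomes active. Kinetochores then tie the chromosomes to the spindle, the spindle checkpoint holds the anaphase-promoting complex until every chromosome is attached, and Cdc20 and Ube2c let that complex destroy the cyclins. Transcripts of these genes are low in resting and early-cycle cells and accumulate before division, under B-MYB, FOXM1 and the DREAM complex, so they are widely read as marks of cycling cells in tumors and in dividing leukocytes.

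RNA was read with Smart-seq2, which makes 1 full-length library per cell, from 648 mouse cells of 14 samples. The 9 tumor-bearing samples came from C57BL/6J females, 6 to 8 weeks old, that had been injected with B16F10, a mouse melanoma line carrying a fluorescent label. Cells from blood and lung were sorted by tumor and host markers, not named in the labels, into classes called DP (450 cells, 9 samples), CTC (43 cells, 5 samples) and WBC (46 cells, 6 samples). The labels do not say that samples are separate animals, so the spread between samples may in part be technical, and they give no day of collection. The 5 controls are 1 sample each: 22 B16F10 cells, whose cell type is given as CTC, and, all labelled as from naive C57BL/6J females, also 6 to 8 weeks old, 18 CDP, 24 Duplike, 24 PltLike and 21 WBC cells.

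DP and CTC cells were split by the summed level of 4 melanosome genes (Pmel, Dct, Tyrp1 and Mlana) at 5000 CPM (counts-per-million of the cell), a rule that uses none of the 38 genes. This gave 262 tumor-high DP cells from 8 samples, 188 tumor-low DP cells from 9 samples, 42 tumor-high CTC and 46 WBC, all of which lay below the line. The nearest cells were at 4942 CPM below it and 5023 above it. At a median of 10 CPM or more, tumor-high DP cells had all 9 melanocyte markers checked and tumor-low DP cells all 8 pan-leukocyte and all 8 macrophage markers, while all of the CDP, Duplike and PltLike cells, labelled naive, lay above the line, with median melanosome levels of 28967, 26550 and 24617 CPM against 29182 in B16F10. Depth differed between classes. The median cell had 19.1 Mcounts (megacounts) in tumor-high DP, 22.7 in CTC, 7.54 in tumor-low DP, 4.93 in WBC and 1.05 in naive WBC, and 8591, 8608, 6317, 5746 and 2226 genes were detected, so shares of cells are also given after thinning each cell to 500000 counts.

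The promoters of the mitosis genes shared 2 short sequences that the choice of genes did not use. RefSeq (GRCm38.p6) held promoter windows, from 250 bases before to 50 after the gene start, for 32 of the 38. The letters TTTGAA, the cell cycle genes homology region (CHR) that DREAM and B-MYB complexes are known to bind, were present on either strand in 25 of the 32 (78.1%) and in 20.2% of all 27025 genes with a window. The letters CCAAT, bound by NF-Y, were present on either strand in 26 (81.3%) and in 41.1% of all genes, and both motifs, which can share an end letter, in 22 (68.8%) and 7.97%. At 2 or more places, CCAAT was in 59.4% of the members' windows and in 13.3% of all. The related letters TTCGAA were in 12.5% and 1.80%. The 67 CCAAT places in the members' windows had a median of -68, and 65 lay before the gene start. TTTGAA lay at a median of +2, with 27 of 35 places within 50 bases of the start. Ect2 and Prc1 each had 2 overlapping windows, so places that these share were counted from both starts. Among other lists of cell cycle genes, TTTGAA was in 13.6% of replication genes and 50% of other spindle and kinetochore genes, and CCAAT in 72.7% and 65.4%. A match of letters is a description and does not show binding.

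TTTGAA and at least 2 CCAAT boxes occurred together in the 150 bases before the start of 6 members, which are printed below 5′ to 3′ on the gene's own strand because they show the arrangement most fully. Capitals mark TTTGAA, the related TTCGAA and the box CCAAT, or the same letters read on the other strand, which appear as TTCAAA for the first and as ATTGG for the last. The windows are, in GRCm38.p6, chr4:118437344-118437493 (minus strand) for Cdc20, chr10:69352913-69353062 (minus) for Cdk1, chr2:129297213-129297362 (minus) for Ckap2l, chr3:27153879-27154028 (minus) for Ect2, chr11:99024190-99024339 (minus) for Top2a and chr2:164769779-164769928 (plus) for Ube2c.
Cdc20: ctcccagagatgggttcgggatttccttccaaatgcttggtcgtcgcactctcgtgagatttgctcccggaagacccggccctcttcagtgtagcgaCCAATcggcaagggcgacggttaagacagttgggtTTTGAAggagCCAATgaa
Cdk1: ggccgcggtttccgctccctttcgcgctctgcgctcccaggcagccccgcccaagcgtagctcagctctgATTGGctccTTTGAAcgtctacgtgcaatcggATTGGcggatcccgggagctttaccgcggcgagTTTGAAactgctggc
Ckap2l: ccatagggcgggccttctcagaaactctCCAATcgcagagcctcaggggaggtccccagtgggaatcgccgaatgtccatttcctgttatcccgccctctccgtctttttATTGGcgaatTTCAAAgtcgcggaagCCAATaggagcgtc
Ect2: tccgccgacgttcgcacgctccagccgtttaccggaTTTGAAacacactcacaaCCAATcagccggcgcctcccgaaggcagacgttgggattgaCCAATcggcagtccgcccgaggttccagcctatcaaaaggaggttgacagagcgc
Top2a: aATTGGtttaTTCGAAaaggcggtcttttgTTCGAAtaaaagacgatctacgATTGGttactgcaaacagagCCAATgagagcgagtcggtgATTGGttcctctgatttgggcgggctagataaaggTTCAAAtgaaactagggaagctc
Ube2c: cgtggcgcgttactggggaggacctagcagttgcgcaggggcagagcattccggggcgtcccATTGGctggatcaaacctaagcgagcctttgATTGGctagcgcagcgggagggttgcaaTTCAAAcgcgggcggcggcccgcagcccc

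In tumor-high DP cells most of the 38 genes were either on or off together. Most tumor-low DP cells had 0 to 9 members on, and most of those with 10 or more had fewer than 29. A member was counted as on at 10 CPM or more, and a cell with at least 19 members on was called mitosis-high, which is a range of a score and not a cell type. Among the 262 tumor-high DP cells, 91 had 0 to 9 members on, 31 had 10 to 18, 24 had 19 to 28 and 116 had 29 to 38, so that both ends were filled and the middle was thin. Among the 188 tumor-low DP cells these counts were 141, 18, 19 and 10. Near the line, with 16 to 21 members on, were 16 tumor-high DP and 13 tumor-low DP cells. Mitosis-high cells made up 140 of 262 tumor-high DP cells (53.4%, exact 95% binomial interval 47.2 to 59.6) and 23 of 42 CTC (54.8%, 38.7 to 70.2). They made up 29 of 188 tumor-low DP cells (15.4%, 10.6 to 21.4) and 4 of 46 WBC (8.70%, 2.42 to 20.8). After thinning, with 1, 0, 6 and 3 shallower cells left out, the shares were 54.0%, 54.8%, 17.0% and 4.65%. Intervals cover counting error only, and cells of a sample are not replicates.

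**Figure D1:**
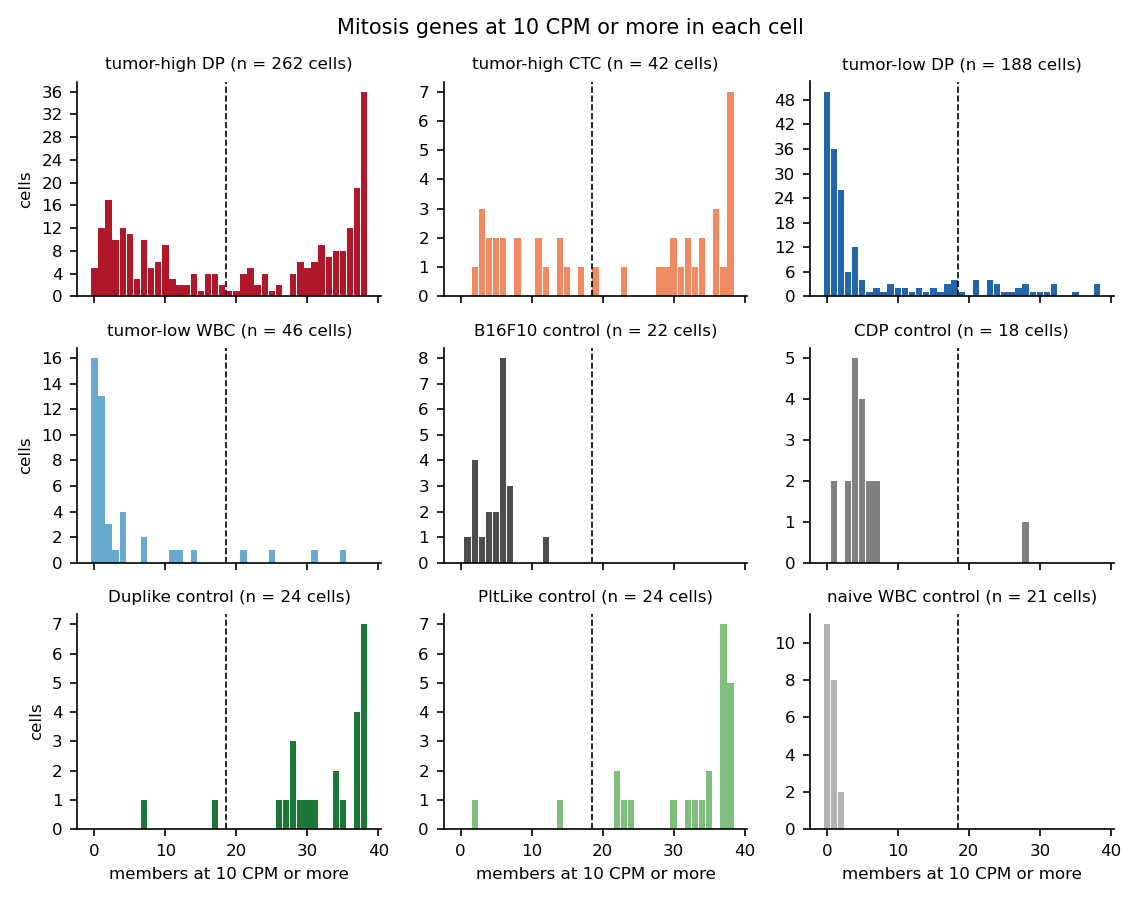
Number of cells (y axis) by the number of the 38 mitosis genes at 10 CPM or more (x axis) in each class and control, with the dashed line just below 19 members. Tumor-high DP cells pile up at both ends, with 91 cells at 0 to 9 and 116 at 29 to 38 members, B16F10 cells reach at most 12 members, and Duplike and PltLike cells lie mostly at the right.

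Samples of a class differed in this share. In tumor-high DP it was 70.0% in replicate 1, 58.3% in replicate 2, 60.9% in replicate 3, 40.0% in replicate 5, 55.7% in replicate 6, 60.0% in replicate 7, 41.9% in replicate 8 and 40.0% in replicate 9. The tumor-low DP shares were 20%, 8.33%, 14.7%, 13.3%, 10.5%, 40.0%, 12.5%, 25.0% and 7.14% in replicates 1 to 9. Replicate 6 alone brought tumor-low DP up to the lowest tumor-high DP samples, and within each of the 8 samples that held both, the tumor-high share was the higher. CTC had 66.7%, 50%, 53.3%, 50% and 75% in replicates 1, 2, 3, 5 and 6, inside or just above the tumor-high DP range. WBC ran from 0% in 3 samples to 33.3% in replicate 1, which held 3 WBC.

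**Figure D2:**
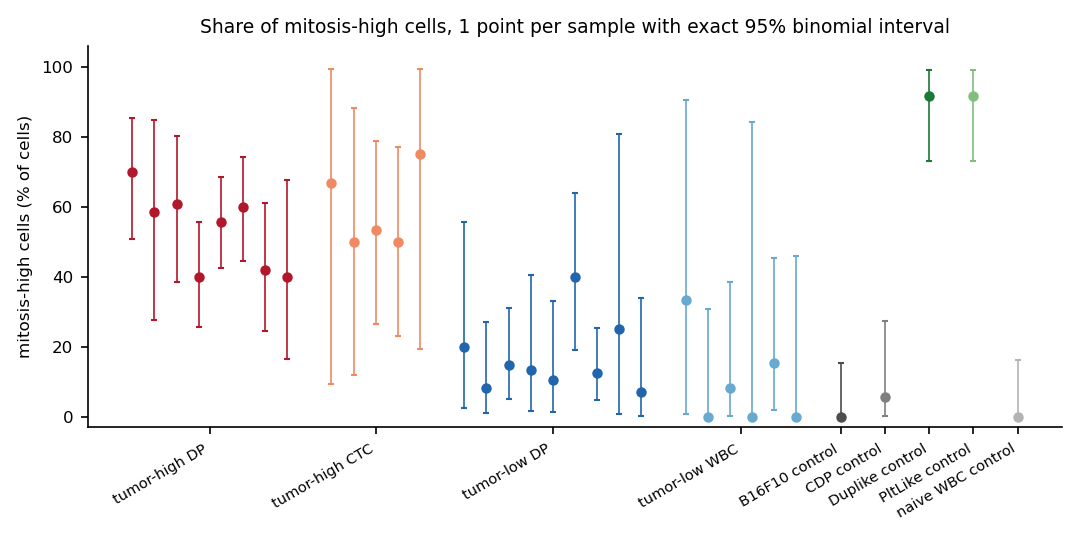
Share of mitosis-high cells (y axis, % of cells) in each sample of a class and in each control, 1 point per sample with its exact 95% binomial interval. Tumor-high DP samples sit between 40.0% and 70.0%, tumor-low DP samples between 7.14% and 40.0%, B16F10 at 0% and Duplike and PltLike at 91.7%.

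Members differed in how many cells had them on. In the 103 tumor-high DP and CTC cells with 0 to 9 members on, Cdk1, the kinase that drives entry into mitosis, was on in 46.6%, Top2a, which untangles DNA, in 25.2%, Racgap1, a midzone protein, in 24.3%, and Ube2c, the ubiquitin carrier of the anaphase-promoting complex, in 22.3%. The microtubule protein Nusap1 was on in 0 of the 103. The phosphatase Cdc25c, the checkpoint kinase Ttk, Kif20a and Pbk were each on in 1. In the 65 cells with 10 to 28 on, Birc5, a chromosomal passenger subunit, and the cyclin Ccnb2 were each on in 86.2% and Cdk1 in 83.1%. Kif4, Kif23 and Ttk were each on in 12.3% and Nusap1 in 9.23%. In the 136 cells with 29 or more, Birc5, Ccnb1, Cdca8, Racgap1 and Ube2c were on in all, Ttk in 69.1% and Cdc25c in 64.0%. These shares follow the number of members on and each gene's own level, and give no order in time.

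Per kilobase of exons, the most abundant members in tumor-high DP were Cdc20, the activator of the anaphase-promoting complex, with a median over 8 samples of 130 CPM per kilobase (52.8 to 193), Ccnb2 with 119 (112 to 155), Ube2c with 92.0 (53.3 to 132), the kinase Plk1 with 83.3 (41.1 to 105), the cyclin Ccna2 with 83.1 (59.6 to 102) and the cyclin Ccnb1 with 81.3 (38.5 to 98.6). The lowest were Cdc25c with 5.50 (2.74 to 6.56), Ttk with 4.33 (1.39 to 6.62) and Cenpf, a large kinetochore protein, with 3.01 (2.11 to 6.59). Every gene's range overlapped that of the next in this order. In tumor-low DP the order began with Ccnb2 (37.98), Ube2c (32.8) and Spc25 (18.6), a subunit of the kinetochore complex that grips microtubules, and Cdc20 was 14th at 9.98. The gene Mki67, which encodes the Ki-67 coat of mitotic chromosomes, was 12th there at 14.3, and 29th of the 38 in CTC at 12.4.

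Correlations between members were positive throughout. Over the tumor-high cells of the 6 samples with at least 20 of them, the Spearman correlation averaged within samples had a median of 0.69 over the 703 pairs of members (0.32 to 0.86). Ccna2 and Ccnb1 followed the other members most closely (means 0.75 and 0.75), and Cenpm, a centromere protein, least (0.45). Correlations with the summed level of the members were taken over all 304 tumor-high cells pooled, not within samples. Among 8699 other genes detected in at least 50% of these cells, the 10 most alike were Cks2, Hmgb2, Cdca3, Pimreg, Tuba1b, Tacc3, Ncapd2, Cks1b, Kif22 and Mad2l1. They ran from 0.86 to 0.80, against a median of 0.07 over all 8699. Within the 6 samples these 10 genes ran from 0.68 (Ncapd2) to 0.91 (Cks2). Lowest over the pooled cells were the G1 cyclin Ccnd2 at -0.62 and Atp6v1f, a subunit of the vacuolar proton pump, at -0.50. Cells of a sample share their batch and the values share each cell's depth, so these are descriptions.

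Within the same sample, mitosis-high tumor-high DP cells were compared with the rest as a description, since the split uses the members. The summed level of 26 DNA replication genes was higher in mitosis-high cells in 8 of 8 samples, with medians over samples of 6858 and 2249 CPM. In replicate 9 the means were nearly equal, at 2645 and 2627 CPM. Foxm1, a transcription factor of mitosis genes, was higher in 8 of 8 (134.7 and 18.4 CPM), and Ccnd2 was lower in 8 of 8 (472 and 1124). Of 33 other spindle and kinetochore genes 27 were higher in every sample, of the 26 replication genes 13, and of 15 cohesin, condensin and separase genes 7, against 6.11% of 11406 other genes. Beside this, mitosis-high cells had more counts in 7 of 8 samples (medians 19.7 and 19.6 Mcounts) and a lower mean melanosome level in 7 of 8 (medians 26957 and 33942 CPM). Their part in the differences was not tested.

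The question of the comparison between tumor-high and tumor-low DP was whether the melanoma-like and leukocyte-like cells of the DP sort differed in mitosis genes. Members were mostly higher in tumor-high DP, but no member passed the test. The tests used counts added up over the cells of a class in each tissue of a sample. In such sums fewer cycling cells and less RNA per cycling cell cannot be told apart. Cell by cell, 53.4% of tumor-high and 15.4% of tumor-low DP cells were mitosis-high. Among mitosis-high cells alone the summed level of the members had medians of 7759 and 6997 CPM. The split uses the members, and these levels were not tested. Aurka, the kinase that matures centrosomes, had 99.2 CPM in the lowest of 8 tumor-high DP samples, a median of 138 and a highest of 148, and in 9 tumor-low DP samples 0.32, 6.45 and 131. The groups overlapped through replicate 6 alone, and Aurka was higher in tumor-high DP in 8 of 8 samples. Its log2 difference was 3.47 ± 1.42 (SE), with a Benjamini-Hochberg adjusted p of 0.0926 in edgeR's quasi-likelihood test. Cdc20 had 98.7, 243 and 361 CPM in tumor-high DP and 0.53, 18.7 and 341 in tumor-low DP, where replicate 1 was the highest, a log2 difference of 2.65 ± 1.14 (adjusted p = 0.113 in the same edgeR test). Ect2, a cytokinesis protein, and Anln, a scaffold of the contractile ring, differed by 2.59 ± 1.16 and 2.13 ± 0.97.

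Mki67 and Cenpe did not follow the others. Mki67 had 74.7, 140.4 and 192 CPM (lowest, median and highest) in tumor-high DP and 54.2, 144 and 302 in tumor-low DP, so the groups lay on top of each other. Its log2 difference was -0.99 ± 0.99 (adjusted p = 0.561, edgeR), and it was lower in tumor-high DP in 5 of 8 samples. Cenpe, a kinetochore motor, differed by -0.49 ± 1.23, and Cdk1 by 0.19 ± 0.95, with 180, 272 and 305 CPM in tumor-high DP and 42.7, 88.2 and 334 in tumor-low DP. The Mki67 gene was on in 53.4% of tumor-high and 32.4% of tumor-low DP cells, and Aurka in 53.4% and 12.8%.

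By count, 0 of 38 members passed the threshold of 0.05 in edgeR's quasi-likelihood test, where 16.2% of the 14708 genes tested did. An unadjusted p under 0.05 was found for 4 members and for 28.2% of all genes. DESeq2 called 4 members and 4639 of 14708 genes. The median member differed by 1.16, the median of all genes by 0.43, and 36 members were above 0. By role, the medians were 1.78 for the entry kinases and cyclins, 1.84 for midzone and cytokinesis, 1.43 for checkpoint and exit, 1.21 for spindle motors, 1.11 for the passenger complex, 0.54 for centromere and kinetochore and -0.06 for the 2 mitotic chromosome genes. With each cell weighted equally, 17 members passed, all higher in tumor-high DP, where 4346 of 14708 genes passed in either direction. In blood sums alone all 38 members were above 0, with a median of 2.47. In lung sums alone 24 were, with a median of 0.27.

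**Figure D3:**
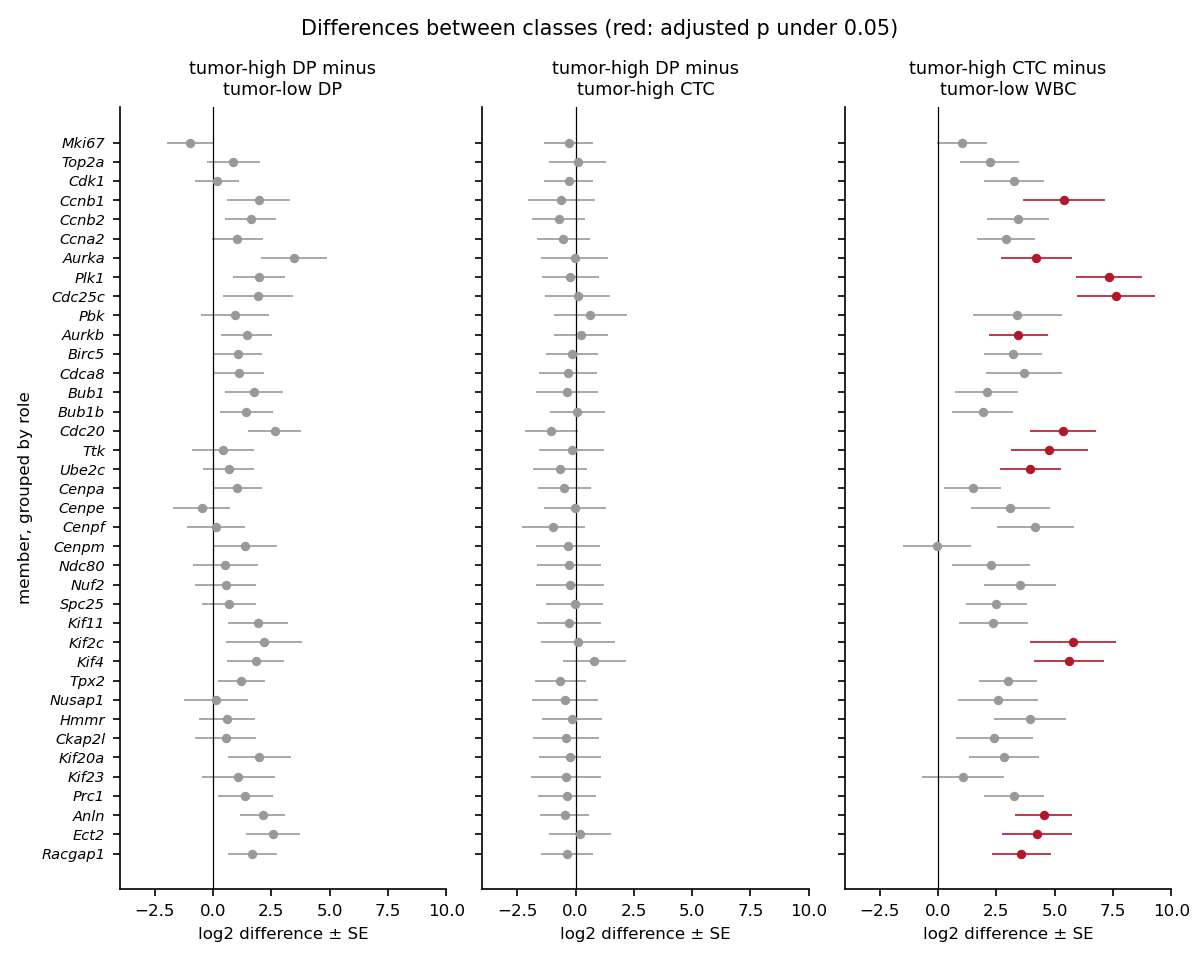
Log2 differences with their standard errors (x axis) for each mitosis gene (y axis, grouped by role) between tumor-high DP and tumor-low DP, tumor-high DP and CTC, and CTC and WBC, red where the adjusted p was under 0.05. Members lie mostly right of 0 in the left panel and near 0 in the middle, and 13 are red in the right panel.

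Other cell cycle genes gave few calls in this comparison. Of 26 replication genes 1 was higher in tumor-high DP and of 9 G1 genes 2, while of 12 tested inhibitors 3 were lower, and no gene passed among 33 other spindle and kinetochore genes, 15 cohesin, condensin and separase genes and 13 regulators. Ccnd2 averaged 780 ± 148 CPM (SD, n = 8) in tumor-high and 232 ± 143 (n = 9) in tumor-low DP (log2 1.58 ± 0.53, adjusted p = 0.0356, edgeR), and Cdk2, a kinase of the G1 to S transition, 656 ± 157 and 74.0 ± 45.7 (log2 3.01 ± 0.68, adjusted p = 0.00188, edgeR). Rrm2, a subunit of the enzyme that makes deoxynucleotides, averaged 495 ± 179 and 201 ± 252 and did not pass (adjusted p = 0.339, edgeR).

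Of the tumor-low DP cells that were mitosis-high most, but not all, had leukocyte markers. Of these 29 cells, 22 had at least 6 of 8 pan-leukocyte markers on, 17 at least 5 of 8 macrophage markers and 6, all from lung, at least 5 of 8 alveolar macrophage markers. For the other 159 tumor-low DP cells these counts were 134, 105 and 40. The remaining 7 of the 29 had 0 to 2 pan-leukocyte markers on, as did 16 of the 159, and 9 of the 29 had at least 5 of 9 melanocyte markers on, as did 41 of the 159. A melanosome level of 500 CPM or more, short of the line, was found in 9 of the 29, of which 7 came from blood, and in 37 of the 159. Among WBC, at least 5 melanocyte markers were on in 2 of 4 mitosis-high and 14 of 42 other cells. The level of 500 CPM was reached in 2 of these 4 and in 9 of these 42. No doublet caller was run, so wells with a pair of cells were not removed. Among the 29, Birc5 was on in 29, Mki67 in 28 and Ccna2, Top2a and Ube2c in 27 each, whereas Cdc20 was on in 16, Aurka in 15, Kif11, the motor that pushes spindle poles apart, in 13, and Cdc25c in 9.

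Tumor-high DP and CTC were compared to ask whether melanoma-like cells of the DP sort differed from those of the CTC sort. No difference in mitosis genes passed the test. Ccnb1 had 162 CPM in the lowest tumor-high DP sample, a median of 343 and a highest of 416, and 165, 337, 245, 467 and 525 CPM in the CTC of replicates 1, 2, 3, 5 and 6, so the ranges overlapped widely. Its log2 difference was -0.61 with a 95% interval, from its SE and the residual degrees of freedom, of -3.54 to 2.31. Top2a differed by 0.09 (-2.41 to 2.59), Birc5 by -0.16 (-2.47 to 2.15), Racgap1 by -0.36 (-2.62 to 1.89), Tpx2, a spindle assembly factor, by -0.64 (-2.90 to 1.61), and Cenpa, the centromeric histone, by -0.48 (-2.81 to 1.85). Of 38 members 0 passed edgeR's quasi-likelihood test, where 0.829% of 14708 genes did. An unadjusted p under 0.05 was found for 0 members and for 9.41% of all genes. DESeq2 called 0 members and 1148 of 14708 genes. The median member differed by -0.28, against 0.22 for all genes, and 30 members were lower in tumor-high DP. The intervals are wide, with a median SE of 1.31, and do not show that the classes are alike. Without replicate 5 the median turned to 0.16, with 22 members above 0. The test called 0 genes of the other cell cycle lists.

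CTC and WBC differed in part of the mitosis genes. Of 38 members 13 were higher in CTC and 0 lower by edgeR's quasi-likelihood test, where 14.9% of 14708 genes were higher, 10.1% lower and 25.0% changed in either direction. The 13 comprised 4 entry genes (Ccnb1, Aurka, Plk1 and Cdc25c), the passenger kinase Aurkb, 3 genes of checkpoint and exit (Cdc20, Ttk and Ube2c), the microtubule-depolymerising kinesin Kif2c, the chromosome-bound kinesin Kif4, and Anln, Ect2 and Racgap1 of the midzone and cytokinesis. No centromere or kinetochore gene passed.

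Plk1 had 63.5, 79.1, 125.3, 273 and 428 CPM in the CTC of replicates 1, 2, 3, 5 and 6, and between 0.06 and 19.4 CPM, with a median of 0.73, in the 6 WBC samples. Every CTC sample lay above every WBC sample, and the log2 difference was 7.31 ± 1.41 (adjusted p = 0.000198, edgeR). Cdc25c had 18.003, 47.7, 12.3, 44.2 and 56.7 CPM in CTC and at most 0.34 in WBC, where no cell had it on (log2 7.64 ± 1.68, adjusted p = 0.000827, edgeR). Cdc20 had 142, 197, 179, 351 and 371 CPM in CTC and 0 to 35.9 in WBC (log2 5.35 ± 1.41, adjusted p = 0.00453, edgeR), again with no overlap. In 15 members every CTC sample was above every WBC sample, as in 12.8% of all genes. Mki67 was not among them, with 82.0 to 277 CPM in CTC and 0.16 to 188 in WBC (log2 1.03 ± 1.05), nor was Cenpm, at 22.4 to 51.1 and 0.90 to 79.5 (log2 -0.03 ± 1.46).

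The median member differed by 3.33 between CTC and WBC, the median of all genes by 0.69, and 37 members were above 0. Without replicate 5 the median member differed by 2.10. Of other lists, 6 of 26 replication genes, 5 of 33 other spindle and kinetochore genes, 5 of 13 regulators and 3 of 9 G1 genes were higher in CTC, 1 of 15 cohesin, condensin and separase genes was higher, and 3 of 12 inhibitors were lower. Foxm1 averaged 116 ± 74.2 CPM (SD, n = 5) and 4.87 ± 10.5 (n = 6), a log2 difference of 4.90 ± 1.42 (adjusted p = 0.00926, edgeR), and Btg1, an antiproliferative gene, 15.3 ± 11.9 and 413 ± 212 (log2 -5.54 ± 0.74, adjusted p = 8.21e-07, edgeR). The count of 13 moved with single samples: it was 2 without replicate 5, 5 without replicate 2, 7 without replicate 6, 8 without replicate 7 and 25 without replicate 3. Among all genes the test called 2718 of 14242 without replicate 5 and 3220 of 14514 without replicate 3. The WBC samples were small, with 2 to 13 cells each.

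Tumor-low DP was set against WBC, both below the melanosome line, to see whether the leukocyte-like DP cells differed from sorted leukocytes. Plk1 was the member that passed, with 1.78 CPM in the lowest tumor-low DP sample, a median of 40.4 and a highest of 205, against 0.06, 0.73 and 19.4 in WBC. It was higher in tumor-low DP in 6 of 6 samples that held both, while the groups overlapped, and the log2 difference was 5.11 ± 1.30 (adjusted p = 0.0379, edgeR). It was 1 of 38 members, where 1.12% of 14708 genes were higher and 1.24% changed in either direction. An unadjusted p under 0.05 was found for 7 members and for 16.2% of all genes. The median member differed by 1.81, against 0.60 for all genes. The call on Plk1 was lost when any of replicates 2 to 7 was left out (adjusted p from 0.0626 to 0.12, edgeR) and without the sample as a block (0.0573). With each cell weighted equally it was lost too, at a log2 difference of 2.25 (adjusted p = 0.12, limma). It was also lost with at least 5 cells per sum (0.131, edgeR), with the melanosome line at 1000 CPM (0.0648, edgeR), and in blood or lung sums alone. In blood sums alone the median member was -0.70 and in lung sums alone 6.24, and it was 1.11 without replicate 2.

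Tissue was compared within a class, in the samples that held both. In tumor-high DP, mitosis-high cells were 0 of 2 in lung and 14 of 21 in blood in replicate 3 (0% and 66.7%), 50% and 38.5% in replicate 5, and 52.9% and 81.8% in replicate 7. The lung share was thus lower in 2 of the 3, and over all samples it was 46.6% in lung and 56.1% in blood. Cdc20 averaged 104 ± 114 CPM (SD, n = 3) in lung and 269 ± 18.1 in blood, below blood in each of the 3, and the log2 difference was -2.50 ± 1.88. By edgeR's quasi-likelihood test 0 of 38 members passed, as did 0 of 12715 genes (0%). An unadjusted p under 0.05 was found for 0 members and for 0.582% of all genes. DESeq2 called 0 members and 468 of 12715 genes. All 38 members were below 0, with a median of -1.82, against -0.70 for all genes. That median was -0.27 without replicate 3, whose lung sum held 2 cells, -4.97 without replicate 5 and -5.03 without replicate 7.

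In tumor-low DP the signs were the other way. Top2a averaged 163 ± 137 CPM (SD, n = 4) in lung and 50.3 ± 84.8 in blood (log2 4.61 ± 1.99), Mki67 216 ± 112 and 66.4 ± 92.4 (log2 4.35 ± 1.96), and Spc25 108 ± 136 and 7.54 ± 13.4 (log2 6.25 ± 2.75), each higher in lung in 3 of 4 samples and none past the threshold (adjusted p = 0.869, 0.906 and 0.890, edgeR). Of 38 members 0 passed edgeR's test, where 0.310% of 11626 genes did. An unadjusted p under 0.05 was found for 3 members and for 5.12% of all genes. DESeq2 called 9 members and 1376 of 11626 genes. The median member differed by 3.27 and the median of all genes by 0.20. The shares of mitosis-high cells over all samples were 13.5% of 104 cells in lung (7 samples) and 17.9% of 84 in blood (6 samples). They include samples outside the 4 compared, so shares and log2 differences cover unlike sets of samples. Blood sums of replicates 1 and 3 held 3 and 2 cells. The median member was 1.36, 4.75, 1.55 and 5.04 without replicates 1, 2, 3 and 7, and -0.64 with at least 5 cells per sum.

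The B16F10 control, cells titled with the name of the injected line, had far less of every mitosis gene than tumor-high DP, although the melanosome level was similar. All 38 members were lower by edgeR's quasi-likelihood test, with adjusted p from 1.15e-07 to 0.0199, where 3.02% of 14776 genes were lower and 4.19% changed in either direction. The control is 1 sample that the test assumes to vary like the tumor-bearing ones, so these values compare that sample with 8 others, and sample and condition cannot be told apart. Every member also lay below all 8 tumor-high DP samples, as did 15.9% of all genes. The summed level of the 38 was 195 CPM in B16F10, and in tumor-high DP samples it ran from 3580 to 5521 with a median of 4918. No B16F10 cell was mitosis-high (0 of 22, upper exact 95% limit 15.4%), and the cells had 1 to 12 members on.

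The decrease was uneven. Cdk1 remained at 38.3 CPM and was on in 19 of 22 B16F10 cells, against 180 to 305 CPM in tumor-high DP samples, 6.52-fold under their mean. Racgap1 was on in 11 and Ccnb1 and Spc25 in 10 of 22. Ccnb1 was at 17.4 CPM, 18.8-fold under the mean of 327, and Top2a at 16.1, 18.7-fold under 302. Ccna2 was at 1.35 CPM, 248-fold under 334, and Ube2c at 0.35, 687-fold under 239. Mki67, Ccnb2, Cdc20, Cenpm, Kif11, Kif2c, Hmmr (a spindle-associated hyaluronan receptor) and Nuf2 (a partner of Ndc80 at the kinetochore) had 0 counts among 328 Mcounts. With a floor of 3 counts over the control, Mki67 was at least 14941-fold lower, Ccnb2 at least 20967-fold, Cdc20 at least 25007-fold and Cenpm, the lowest of these in tumor-high DP, at least 3047-fold. Such bounds cover counting error only and take each count as an independent draw, which counts of the same cell need not be. They hold for these 22 cells and not for other B16F10 cells.

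Other cell cycle genes were also lower in B16F10 than in tumor-high DP: 21 of 26 replication genes, 28 of 33 other spindle and kinetochore genes, 9 of 15 cohesin, condensin and separase genes, 5 of 13 regulators, 2 of 9 G1 genes and 1 of 11 tested inhibitors, and none of these lists had a gene that was higher by the test. Rrm2 was at 25.8 CPM against 510.4 ± 156 (SD, n = 8; adjusted p = 0.00107, edgeR), and Foxm1 at 2.17 against 87.8 ± 17.3 (adjusted p = 9.78e-06, edgeR). Ccnd2 was at 1332 CPM against 782 ± 158 and Cdk4 at 467 against 521 ± 66.0, and neither passed (adjusted p = 0.159 and 0.627, edgeR). Depth was near that of tumor-high DP, with a median of 14.5 Mcounts and 8675 genes detected per cell, and the share of B16F10 cells that were mitosis-high was also 0% after thinning.

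The other lone controls above the melanosome line fell on either side. These have 1 sample each and are given without a test. In CDP, 1 of 18 cells was mitosis-high (5.56%, 0.14 to 27.3), the summed level was 168 CPM, and all 38 members were below all 8 tumor-high DP samples, as were 14.6% of all genes. In Duplike and in PltLike, 22 of 24 cells were mitosis-high (91.7%, 73.0 to 99.0), with summed levels of 7162 and 8855 CPM. In Duplike 28 members were above all 8 tumor-high DP samples and 10 inside their range (17.2% of all genes were above), and in PltLike 33 and 5 (15.4%). Kif11 was at 260 CPM in PltLike and 198 in Duplike, above the highest tumor-high DP sample at 104, and Cdk1 at 547 and 386, above 305. Mki67, Cdc20, Cenpm and Hmmr were inside the range in both. In naive WBC no cell was mitosis-high (0 of 21, upper limit 16.1%), where the median cell had 1.05 Mcounts.

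**Figure D4:**
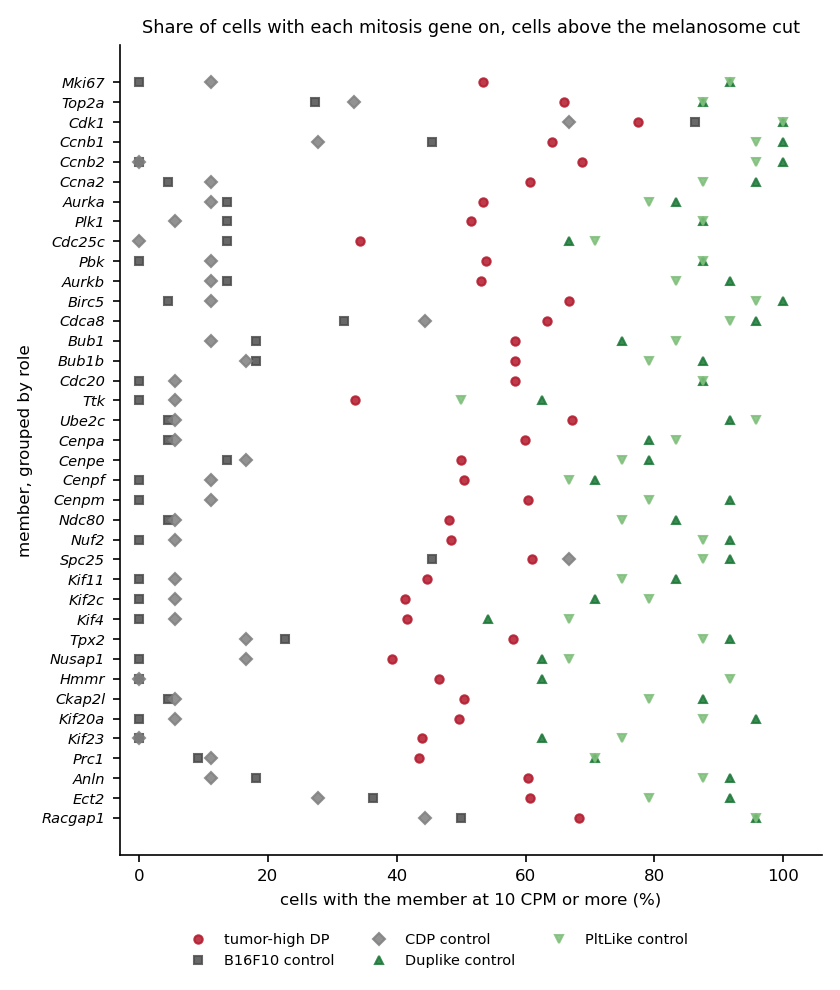
Share of cells with each mitosis gene at 10 CPM or more (x axis, %) for each member (y axis, grouped by role) in tumor-high DP and the 4 controls above the melanosome line. Cdk1 stands out in B16F10 at 86.4%, where the other members reach at most 50%, Cdk1 and Spc25 are at 66.7% in CDP, and Duplike and PltLike lie to the right of tumor-high DP.

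**Figure D5:**
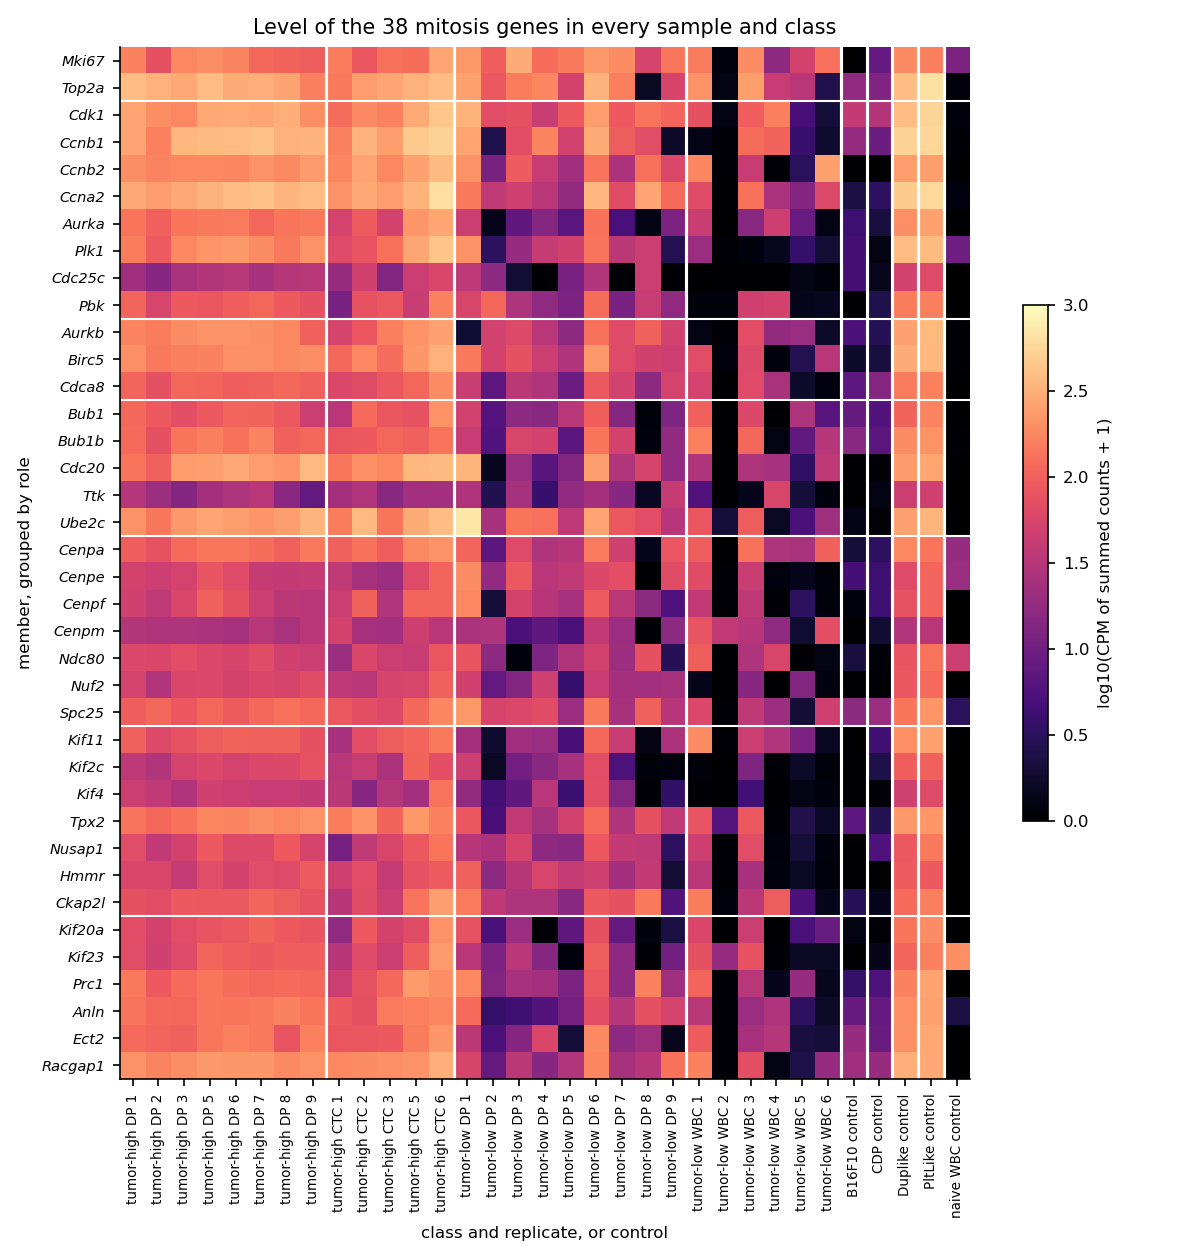
Level of each mitosis gene (rows, grouped by role) in every sample and class (columns), as log10 of the CPM of summed counts plus 1. Tumor-high DP and CTC columns are bright throughout, tumor-low DP and WBC columns vary from sample to sample, B16F10 and CDP are dark, and Duplike and PltLike are the brightest.

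Some members overlap a gene on the opposite strand that is also in the count table: Ccna2 with Exosc9, Cdc20 with Elovl1, Kif20a with Cdc23, Kif4 with Pdzd11, Nusap1 with Oip5, Prc1 with Rccd1 and Ube2c with Tnnc2. The strand setting of the counting is not given in the sources used here, so their levels are less certain, and Kif4 also has a copy, Kif4-ps, in the table. In GENCODE vM21 (GRCm38) Cdk1 lies on chromosome 10 (69335146 to 69352938), Plk1 on chromosome 7 (122159439 to 122169873), Aurka on chromosome 2 (172356190 to 172370535), Mki67 on chromosome 7 (135689784 to 135716361) and Cdc20 on chromosome 4 (118432901 to 118437352).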

How the data were processed

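The authors deposited raw read counts per gene and cell for 21138 genes and 648 cells. Per the submitters' processing notes, Trim Galore, HISAT2, SAMtools and featureCounts were used with mm10 (the notes also name BWA and Picard). No version of these tools is named there. Of the counts above 0, 56.7% were even, and no pair of cells was identical. Cells had 20525 counts to 104 Mcounts (megacounts), with a median of 15.8 Mcounts.

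Class counts of each tissue of a sample were added up where at least 2 cells were present (40 sums) and tested with edgeR 4.0.16 (quasi-likelihood test, TMM scaling, filterByExpr, Benjamini-Hochberg over all genes tested, threshold 0.05), with sample as a block and tissue as a term, under R 4.3.3 with limma 3.58.1. The replicate number is the sample itself, so same-numbered sums come from the same sample. The deviations of such sums had a median correlation of 0.03 (89 pairs, -0.13 to 0.21), against -0.01 between samples (599 pairs). Lung was compared with blood in samples with both, and B16F10 with the summed tumor-high DP cells of 8 samples. The script was tested on simulated data. Alternatives used DESeq2 1.42.0, other scalings, no filter, no block, more cells per sum, equal cell weight, other lines, 1 tissue, and each replicate left out. Shares and motifs used Python 3.11.15, pandas 2.3.3, NumPy 2.4.6 and SciPy 1.17.1.

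The 38 members and the gene lists were chosen with earlier results of these data known. Named in each comparison were up to 4 members per role by mean CPM, members past the threshold against the direction of most, up to 3 genes per list, and the 10 genes most alike the summed members. Other members were named after their values were seen. No doublet caller was run. The 1 CTC below the melanosome line was left out.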

Additional observations from a re-analysis of the deposited data

Results flagged for a closer look

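In 21 of 156 sets of sample values (13.5%), 1 sample stood apart from the others of its class by Dixon's test. For normally distributed values chance does so in about 5% of sets, and CPM values need not have that shape. By class these were 9 of 38 members in tumor-low DP, 8 of 38 in WBC and 2 of 38 in each of tumor-high DP and CTC. Members of a sample share its cells, so these are not independent. In tumor-high DP, replicate 2 (12 cells) was lowest for Cdca8 at 72.2 CPM (others 96.9 to 114) and Nuf2 at 28.8 (50.5 to 65.6). In tumor-low DP, replicate 6 (20 cells) was highest for Aurka at 131 CPM (others up to 45.1), Bub1b, a checkpoint kinase, at 135 (55.1), Kif11 at 113 (41.0), Kif23 at 93.4 (33.2), Kif4 at 70.9 (32.8) and Ect2 at 183 (56.8). Replicate 1 (10 cells) was highest for Cenpe at 187 CPM (85.4), Cenpf at 181 (91.9) and Ube2c at 717 (272).

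In CTC, replicate 6 (4 cells) was highest for Kif4 at 134 CPM (others up to 34.2) and Racgap1 at 317 (212). In WBC, replicate 3 (12 cells) was highest for Aurkb at 69.9 CPM (18.6), Kif2c at 11.4 (0.68) and Kif4 at 3.52 (0.31). Replicate 1 (3 cells) was highest for Plk1 at 19.4 (2.69), Kif11 at 188 (43.8), Prc1, which bundles midzone microtubules, at 108 (31.7) and Ect2 at 89.6 (30.5). Replicate 4 (2 cells) was highest for Ttk at 56.2 (4.88).

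Ccna2 was lower in lung than in blood in every tumor-high DP sample with both tissues (log2 -2.13) and higher in lung in every such tumor-low DP sample (log2 3.29). The difference between the classes was not tested.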

How the results depend on the processing

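Sample is the replicate block of the class comparisons, since the sums of a sample share their source. Without the replicate block 7 members passed in CTC against WBC (13 with it) and 2 in tumor-low DP against WBC (1 with it). Among all genes 3601 and 909 of 12896 passed (3677 and 182 of 14708 with it). Ube2c and Spc25 turned to -0.17 and -0.0061 in tumor-high against tumor-low DP, and Top2a to -0.081 in tumor-high DP against CTC. The block changed no other count of members.

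DESeq2 called 4 members in tumor-high against tumor-low DP, 11 in tumor-low DP against WBC, 27 in CTC against WBC and 9 in lung against blood of tumor-low DP. Among all genes it called, in the same order, 4639, 3161 and 6259 of 14708 and 1376 of 11626. With each cell weighted equally 17 members passed in tumor-high against tumor-low DP and 37 in CTC against WBC. Among all genes 4346 and 6424 of 14708 did. Top2a then turned to -0.30 against CTC and Cenpm to 2.11 in CTC against WBC. With at least 5 cells per sum 6 members passed in CTC against WBC and 0 in tumor-low DP against WBC. Among all genes 1868 and 39 of 16179 did. Mki67 then turned to -0.17 in CTC against WBC, Cenpa to 0.27 in lung against blood of tumor-high DP, and Cenpe, Prc1 and Ube2c to -0.48, -0.90 and -1.34 in tumor-low DP.

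For tumor-low DP against WBC the count of members was 0 with the melanosome line at 1000 CPM and 13 at 20000 CPM. Among all genes 101 of 14801 and 1884 of 14837 passed there. At 20000 CPM, Cdk1 turned to -0.10 in tumor-high against tumor-low DP, Birc5 to 0.10 against CTC, Cenpa to 0.15 in lung against blood of tumor-high DP, and Prc1 and Ccna2 to -0.030 and -0.54 in tumor-low DP. Blood sums alone gave 3 members in CTC against WBC and 0 in tumor-low DP against WBC, where 2677 and 4 of 15110 genes passed. In these sums Mki67 was at 0.33 in tumor-high against tumor-low DP and Top2a at -0.13 against CTC. Lung sums alone gave 0 members in both comparisons with WBC, where 190 and 0 of 14597 genes passed. In lung sums Ccna2, Cdk1 and Spc25 were at -1.46, -0.79 and -0.076 in tumor-high against tumor-low DP. Birc5 was at 0.39 against CTC and Cenpm at 5.27 in CTC against WBC. With TMMwsp scaling Cenpm was at 0.0057 there.

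With each replicate left out in turn, 0 to 1 members passed in tumor-high against tumor-low DP, 0 to 1 in tumor-low DP against WBC and 2 to 25 in CTC against WBC. In such fits, Spc25 ran from -0.050 to 1.16 and Cdk1 from -0.40 to 0.80 in tumor-high against tumor-low DP, Top2a from -0.052 to 0.63 and Birc5 from -0.20 to 0.19 in tumor-high DP against CTC, Cenpm from -1.18 to 0.43 in CTC against WBC, and Cenpa from -5.24 to 0.27 in lung against blood of tumor-high DP. All 38 members were lower in B16F10 in each such fit, while 36 passed with the line at 20000 CPM. The share of mitosis-high cells was 65.3% in tumor-high DP, 71.4% in CTC, 25% in tumor-low DP and 15.2% in WBC with at least 10 members on, and 45.8%, 50%, 6.91% and 4.35% with at least 28. It was 30.9% in tumor-low DP and 30.4% in WBC with 1 CPM as the level for on, and 26.6% in tumor-low DP with the line at 20000 CPM. The causes of these changes were not tested. Few cells per sum limit the class comparisons, and 1 sample per control limits the others.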
